A study of Mus musculus with 4 samples.

Results

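The mutant line M83 was set against its control by the counts of every gene in 1 library of each. Of the 41457 genes of the count table, 10907 held 50 or more counts in the higher of both libraries, and these are the genes described. Each count was scaled to its library's total, and the ratio of M83 to control is given on the log2 scale or as a fold. With 1 library a side there is no replicate check and no test, so the intervals beside ratios are exact 95% binomial (Clopper-Pearson) intervals that cover counting error only.

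Both libraries came from poly(A)-selected RNA of mouse tumour cells of the colon, cultured in RPMI medium. The control carries no mutagen label. M83 is labelled an ENU mutant, as are the further lines M8 and M32, with 1 library each. ENU (N-ethyl-N-nitrosourea) is an alkylating agent that leaves mainly single-base changes spread over the genome. The labels name neither the mutated genes nor the parental cell line, and do not say whether M83 is a single clone. The series text speaks of triplicates, while the table holds 1 column per line.

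Interferons are signalling proteins that switch on antiviral genes through the kinases Jak1 and Tyk2 and transcription factors such as Stat2 and Irf9. Retinoic acid, made from vitamin A by retinaldehyde dehydrogenases, acts through nuclear receptors and guides the differentiation of epithelia. Basal keratins are filament proteins of skin-like, stratified epithelium and are not typical of the colon, whose single-layered epithelium makes keratins 8, 18, 19 and 20.

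The total count was 25818148 in control and 28011773 in M83, and 16712 and 17691 genes had a count. A count of 0 allows up to 3 counts, or 0.116 CPM (counts scaled to 1000000 per library) in control and 0.107 CPM in M83. Colonic, leukocyte and endothelial markers were thin in both libraries. Of 25 colonic epithelium markers, 3 had 50 or more counts, and Cdh1, the epithelial cadherin, had 4 counts in control and 0 in M83. The list's summed level was 105.4 CPM in control and 168.9 CPM in M83, nearly all of it Krt20 and Krt18. With 50 or more counts were 2 of 24 leukocyte markers (203.8 and 225.3 CPM) and 2 of 12 endothelial markers (6.701 and 9.71 CPM). Fibroblast markers were better covered, with 8 of 14 (6691 and 8083 CPM). Ptprc, which defines leukocytes, had 4 counts in control and 0 in M83, and the leukocyte sum was mostly Cd8a, with 4353 and 5163 counts. Profiles of both libraries thus had few colonic epithelial markers beside the label of colon tissue.

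M83 differed from control mainly by genes with higher values. At least 2-fold higher were 628 genes (5.76%) and at least 2-fold lower 119 (1.09%). At least 4-fold higher were 139 (1.27%) and at least 4-fold lower 30 (0.275%). The other 10160 genes (93.2%) lay within 2-fold. The median log2 ratio over all genes was 0.055, with 6133 genes above and 4774 below control. Scaled by edgeR's TMM factors that split turned to 4937 above and 5970 below, so only differences well beyond this shift are read as a direction here. The choice of genes bears on these counts, since 443 genes had 50 or more counts in M83 alone and 114 in control alone. Among the 10350 genes with 50 or more counts in both libraries, 355 (3.43%) were at least 2-fold higher and 64 (0.618%) at least 2-fold lower. The share of genes at least 2-fold higher was largest among genes with few counts. In the fifth of genes with the fewest counts, 17% were at least 2-fold higher and 3.66% at least 2-fold lower. In the fifth with the most counts these shares were 1.79% and 0.459%. The 176 genes with 50 to 59 counts in the higher library had a median log2 difference of 0.55 in size, and the 229 genes just outside, with 40 to 49 counts, had 0.73. In such bulk libraries a higher level in every cell and a larger share of cells with the transcript cannot be told apart.

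**Figure D1:**
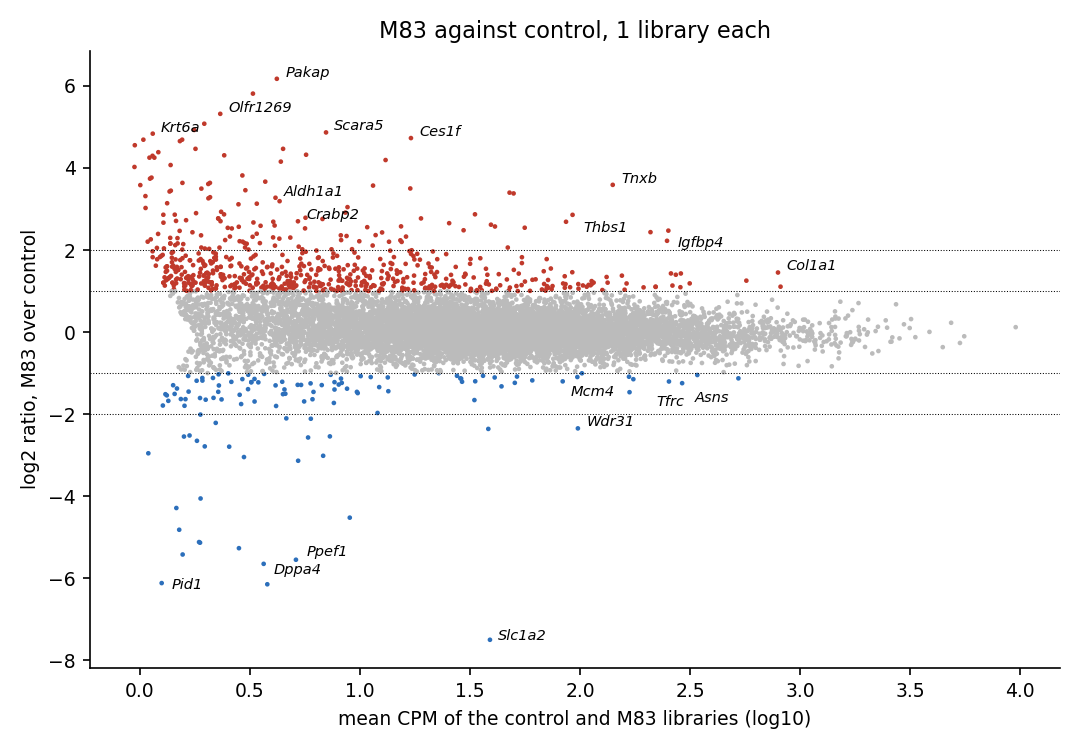
Each point is 1 of 10907 genes, by its mean CPM in the control and M83 libraries (log10, horizontal) and its log2 ratio of M83 over control (vertical), where a count of 0 is set to 3 counts in the ratio only. Red points are the 628 genes at least 2-fold higher, blue points the 119 at least 2-fold lower, and dotted lines mark 2-fold and 4-fold.

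Most antiviral genes were higher in M83. Of 46 listed type I interferon-stimulated genes, 44 had 50 or more counts, and 42 of them were above control and 2 below. Their median log2 ratio was 0.737, beside 0.055 for all genes, and 10 were at least 2-fold higher and none at least 2-fold lower. In the 40 members with 50 or more counts in both libraries, 38 were above, 7 at least 2-fold, with a median of 0.71. For 37 of the 44 the interval lay above 1. Over all genes, 69.9% of intervals left out 1 in either direction. The promoters of such genes often hold the interferon-stimulated response element, here searched as GAAANNGAA on both strands of the 250 bases before the gene's start. In the RefSeq promoters of GRCm38.p6, 13 of the 34 genes of the list that matched a promoter held it (38.2%), beside 7.36% of the 8500 matched genes of the comparison and 7.13% of all 32851 promoters. The 13 genes with the element had a median log2 ratio of 0.76 and the others 0.75. Windows of 100 bases from 6 promoters are shown with the element in capitals on either strand, from genes far above control down to Rsad2, which was close to it.
Ifit3b: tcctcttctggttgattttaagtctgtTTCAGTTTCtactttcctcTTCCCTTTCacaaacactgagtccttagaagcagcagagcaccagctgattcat
Oas3: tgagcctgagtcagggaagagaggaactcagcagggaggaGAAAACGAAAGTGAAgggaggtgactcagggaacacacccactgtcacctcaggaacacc
Oas1a: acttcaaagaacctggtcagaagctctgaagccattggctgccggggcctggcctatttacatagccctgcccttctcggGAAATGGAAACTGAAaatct
Bst2: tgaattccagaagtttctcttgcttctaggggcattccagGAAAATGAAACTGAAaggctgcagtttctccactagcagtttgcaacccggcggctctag
Isg15: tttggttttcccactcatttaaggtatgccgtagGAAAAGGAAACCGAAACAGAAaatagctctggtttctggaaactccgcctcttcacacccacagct
Rsad2: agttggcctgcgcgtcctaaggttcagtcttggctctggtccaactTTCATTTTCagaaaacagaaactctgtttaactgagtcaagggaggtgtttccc
The windows lie at chr19:34607777-34607876 (plus strand), chr5:120777675-120777774 (minus strand), chr5:120907526-120907625 (minus strand), chr8:71537543-71537642 (minus strand), chr4:156200831-156200930 (minus strand) and chr12:26456518-26456617 (minus strand), in that order, and each reads 5′ to 3′ along its gene. They hold 2, 2, 2, 2, 3 and 1 overlapping or separate matches.

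Among the effectors, Ifitm1, which blocks virus entry at membranes, had 111, 89, 67 and 520 counts in control, M8, M32 and M83, a 4.32-fold difference from control (interval 3.51 to 5.35). It stood high in M83 alone. Oas3, a sensor of double-stranded RNA that makes 2-5A, had 406, 51, 759 and 1534 counts in control, M8, M32 and M83, 3.48-fold above control (3.12 to 3.89). Xaf1, a proapoptotic interferon-induced gene, had 74, 25, 140 and 281 counts (3.5-fold, 2.7 to 4.59). Both were lowest in M8 and highest in M83. Ifit3b, which binds viral RNA, had 21, 4, 40 and 93 counts (4.08-fold, 2.52 to 6.9), but 45% of its 50-base words occur in other genes, mostly in Ifit3. For Oas1a, with 296 and 785 counts in control and M83, that share was 57.6%, mostly in Oas1g, so counts of these pairs may be split between members. Some members moved little. Rsad2 (viperin) had 81 counts in control and 97 in M83, a ratio of 1.1 with an interval of 0.813 to 1.5, and Helz2 had 1557 and 1850. Mx1 had 0 counts in both, and Phf11d (133 and 110 counts) and Parp10 (553 and 592) were the 2 members below control. In 35 of the 44 genes M83 had the highest CPM of the 4 libraries, but the same share over all genes was not counted. The list's median over control was -1.622 in M8 and 0.157 in M32, and all these comparisons share the 1 control library.

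**Figure D2:**
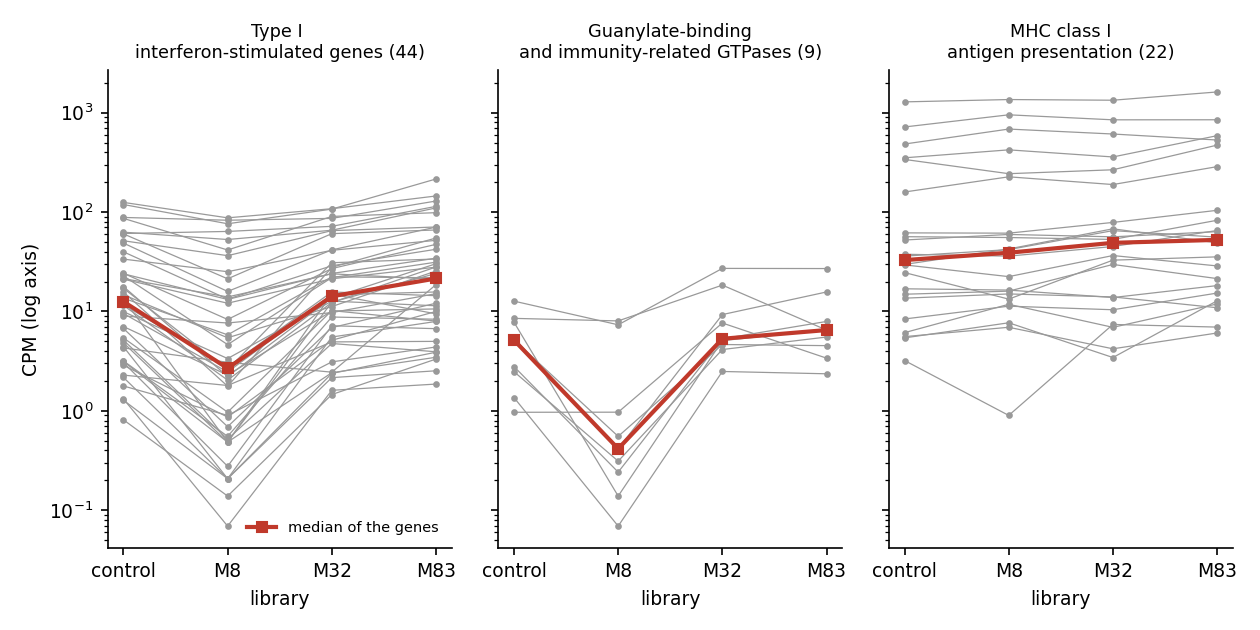
Each grey line is 1 gene with 50 or more counts, by its CPM (log axis) in the control, M8, M32 and M83 libraries, for 44 interferon-stimulated genes, 9 GTPase genes and 22 genes of MHC class I presentation. Red squares are the median of the genes in each library, which is lowest in M8 and highest in M83 for the first 2 lists. The summed level of all listed GTPase genes is higher in M32 (92.01 CPM) than in M83 (82.47 CPM).

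Upstream of these genes the picture was uneven. The receptor genes of type I interferon were below control: Ifnar1 had 1000 counts in control and 877 in M83 (1.24-fold lower, 1.13 to 1.36), and Ifnar2 had 477 and 397 (1.3-fold lower, 1.14 to 1.49). Both lie on chromosome 16, whose genes as a whole were lower in M83, as described further on. The kinase genes Jak1 (3209 and 3708 counts) and Tyk2 (458 and 550) lay within 1.11-fold of control. The transcription factor gene Stat2 was 1.78-fold above control (322 and 622 counts, 1.55 to 2.04) and Irf9 1.38-fold (393 and 589, 1.21 to 1.57). Irf7, a transcription factor that amplifies interferon production, had 220, 31, 249 and 811 counts in control, M8, M32 and M83 (3.4-fold, 2.92 to 3.96). Usp18, which removes ISG15 and damps the receptor, had 88, 11, 189 and 346 counts (3.62-fold, 2.86 to 4.63). These were the only 2 of 25 signalling genes at least 2-fold higher, and none was at least 2-fold lower. The list's median was 0.192.

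GTPases that attack pathogen vacuoles were split. Of 17 listed, 9 had 50 or more counts, 6 above and 3 below control, with a median of 1.081, and 5 were at least 2-fold higher (4 under TMM scaling). Of the 7 with 50 or more counts in both libraries, 4 were above and 3 below. Irgm2 had 138, 12, 254 and 439 counts in control, M8, M32 and M83 (2.93-fold, 2.42 to 3.58), and Igtp had 72, 7, 145 and 222 (2.84-fold, 2.17 to 3.76). Tgtp2 was 3.5-fold above control (25 and 95 counts), with 86.6% of its words shared, mostly with Tgtp1. Gbp7 (201 and 183 counts), Gbp3 (133 and 127) and Ifi47 (220 and 182) were the 3 below control. The genes for showing peptides to T cells were mostly higher by smaller factors, 20 of 22 above control with a median of 0.536 and 2 at least 2-fold higher. The class I heavy chain H2-K1 had 4104, 6531, 5152 and 8023 counts in control, M8, M32 and M83 (1.8-fold, 1.74 to 1.87), and B2m, the light chain, had 8725, 7024, 7269 and 13202 (1.39-fold, 1.36 to 1.43). Psmb8, an immunoproteasome subunit, had 83 and 195 counts in control and M83 (2.17-fold, 1.67 to 2.83), and Tapbpl, a peptide editor, 140 and 358 (2.36-fold, 1.93 to 2.89). H2-M3 (351 and 306 counts) and Erap1 (758 and 805) were below control on this scale. All 8 heavy chain genes lie on chromosome 17, where the median over 556 genes was 0.221.

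Basal keratins had low counts and entered the comparison through M83 alone. Of 53 keratin genes with a row, 10 had 50 or more counts. All 10 were above control, 7 at least 2-fold, with a median of 2.03, but 6 of them (Krt5, Krt14, Krt6a, Krt6b, Krt16 and Krt17) passed the minimum through M83 alone. Their direction was set by that choice, so the count and the median support nothing further. The ratios and the sum given below for these 6 genes describe their counts and support no direction either. The 4 with 50 or more counts in both libraries, Krt10, Krt18, Krt20 and Krt80, had a median of 0.81, and 1 was at least 2-fold higher. With 200 or more counts the list's median was 0.808, and without members that share 10% or more of their words it was 0.82. Krt5 and Krt14, the basal pair that forms filaments together, had 28, 2, 4 and 160 counts and 40, 33, 39 and 187 counts in control, M8, M32 and M83. That is 5.27-fold (3.51 to 8.18) and 4.31-fold (3.05 to 6.22) above control. Krt16 and Krt17, made in wounded or activated skin, had 9, 2, 3 and 71 counts (7.27-fold, 3.62 to 16.6) and 11, 0, 3 and 89 counts (7.46-fold, 3.97 to 15.5). In shared words, Krt16 had 37.6%, Krt14 13.9% and Krt5 12.2%. In each of these genes M83 was the highest library, and M8 and M32 were at or below control. Their partner Krt6a had 2 counts in control, none in M8 and M32 and 62 in M83 (28.6-fold, 7.58 to 241), with 57.2% of its words shared, mostly with Krt6b. Summed over Krt5, Krt14, Krt6a, Krt6b, Krt16 and Krt17 the counts came to 105 (control), 37 (M8), 51 (M32) and 632 (M83). These levels are low: Krt14 reached 6.68 CPM in M83, while Vim, the mesenchymal filament gene, had 146659 counts there. Simple keratins differed less. Krt18 had 710 counts in control and 911 in M83 (1.18-fold, 1.07 to 1.31) and Krt20 had 1914 and 3667 (1.77-fold, 1.67 to 1.87). The other 43 keratin genes had at most 47 counts in M83, and 19 had none there.

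Some of the keratin genes past 4-fold were next to each other among the genes described. Krt14, Krt16 and Krt17 follow each other on chromosome 11 (chr11:100203162-100261029) and Krt6a and Krt5 on chromosome 15 (chr15:101689910-101712898), by GENCODE vM21 on GRCm38. Near the first of these, Igfbp4 and Tns4 were also a neighbouring pair past 4-fold, with 2262 and 11470 counts and 14 and 68 counts in control and M83. Other such pairs were Lamc3 with Aif1l on chromosome 2 (3 and 62 counts, 12 and 232 counts), Rnase4 with Ang2 on chromosome 14 (74 and 407 counts, 0 and 183 counts) and Aldh1a1 with Aldh1a7 on chromosome 19. Bdh2 and Slc9b1 on chromosome 3 went opposite ways, with 19 and 120 counts and 115 and 18 counts in control and M83. Of the genes in these pairs, Igfbp4 and Rnase4 reached the minimum count in both libraries and Slc9b1 in control alone. The others, with all the keratins here, reached it in M83 alone, which set their direction. Of 14 neighbouring pairs past 4-fold, 11 went the same way. Over all genes, 139 were at least 4-fold higher and 30 lower, so most pairs of such genes go the same way wherever they lie. The pairs not named here were of Gm gene models or of Vmn2r78 with Vmn2r79. How many pairs random positions would give was not tested. Neighbouring genes can share reads where their transcripts overlap, and the strand setting of the counting is not given in the sources used here.

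Of single epithelial factors, Klf4, a zinc-finger factor of the skin and gut surface, had 4016, 6674, 5665 and 11733 counts in control, M8, M32 and M83 (2.69-fold, 2.6 to 2.79). The progenitor factor Sox9 had 231, 433, 80 and 774 counts (3.09-fold, 2.66 to 3.59), and it comes from a list of 8 differentiation factors, 5 above and 3 below control, with a median of 0.123. Both were highest in M83. Of 38 stratified epithelial genes other than keratins, 11 had 50 or more counts, 9 above and 2 below control, with a median of 0.235 that was 0.137 under TMM scaling and 0.824 with no minimum count. Klf4 was the 1 member at least 2-fold higher, and Klf5 was 1.55-fold lower (2446 and 1710 counts, 1.46 to 1.65). The list's median was 0.378 in M8 and 0.414 in M32, both above that in M83. The gut cadherin Cdh17 had 4, 8, 12 and 59 counts (13.6-fold, 5.04 to 51.5). It passed the minimum through M83 alone, which set its direction. Of the 25 colonic markers it was taken from, 3 had 50 or more counts. No count was found for 12 of them in control and 14 in M83.

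Most of the genes described that handle or sense retinoic acid were above control. Of 20 listed, 13 had 50 or more counts, 12 above and 1 below control, 7 at least 2-fold higher, with a median of 1.331. Of these, 5 passed the minimum through M83 alone, which set their direction. Aldh1a1, Aldh1a7, Crabp2 and Rarb were among them, so their ratios below support no direction. Of the 8 with 50 or more counts in both libraries, 7 were above and 1 below control, 3 at least 2-fold higher, with a median of 0.59. Aldh1a1, a retinaldehyde dehydrogenase that makes retinoic acid, had 20, 539, 594 and 210 counts in control, M8, M32 and M83 (9.68-fold, 6.11 to 16.2). Its neighbour Aldh1a7 had 10, 281, 340 and 104 counts (9.59-fold, 5.01 to 20.6). Control was lowest for both, and M83 lay between control and the other lines. Crabp2, which carries retinoic acid to the nucleus, had 36, 175, 250 and 254 counts (6.5-fold, 4.57 to 9.5). Of the receptors, Rarb, itself a target of retinoic acid, had 20, 60, 70 and 65 counts (3.00-fold, 1.79 to 5.22), with 34.1% of its words shared with other genes. Rara (445 and 653 counts) and Rarg (2721 and 3689) were above control by 1.35-fold and 1.25-fold, and the partner receptor Rxra was 1.3-fold below (2737 and 2292). Cyp26b1, which degrades retinoic acid, had 128, 343, 433 and 406 counts (2.92-fold, 2.39 to 3.59). The list's median was 0.949 in M8 and 1.4 in M32, over the same control library.

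**Figure D3:**
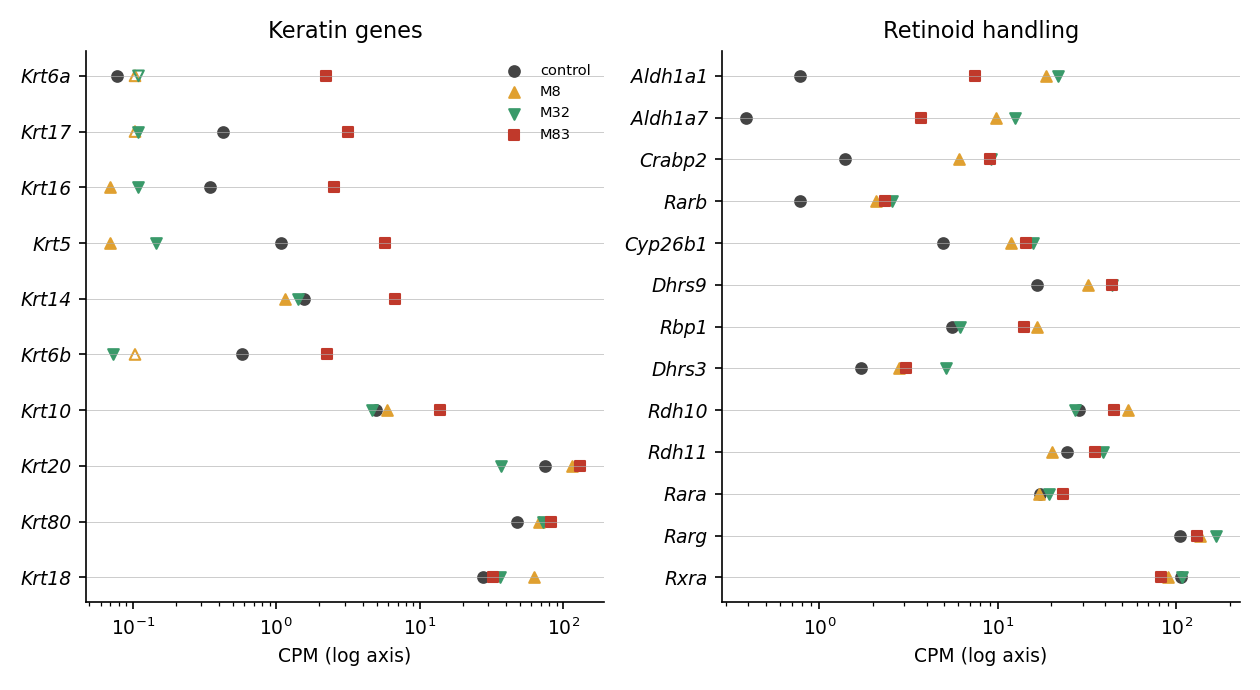
CPM (log axis) of the 10 keratin and 13 retinoid genes with 50 or more counts, in the control (circle), M8 (upward triangle), M32 (downward triangle) and M83 (square) libraries. Open symbols are counts of 0 drawn at the limit of 3 counts. M83 stands right of the others for the basal keratins, while control stands left of all 3 lines for most retinoid genes. Between control and M83, 6 keratin and 5 retinoid genes passed the minimum through M83 alone, which set their direction.

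Other aldehyde dehydrogenases followed another order. Aldh3a1, a detoxifying enzyme of the cornea, had 99, 104, 38 and 553 counts in control, M8, M32 and M83 (5.15-fold, 4.15 to 6.44), and Aldh6a1, an enzyme of valine breakdown, had 28, 20, 40 and 152 (5.0-fold, 3.33 to 7.78). For both, M83 alone was high. Of 13 family members with 50 or more counts, 9 were above and 4 below control, 6 at least 2-fold higher. The median was 0.628 in M83, 0.488 in M8 and 0.298 in M32. In M83 it was 0.4 over the 10 with 50 or more counts in both libraries, 6 above and 4 below. With a minimum of 200 counts it was 0.276. The mitochondrial folate and proline enzymes Aldh1l2 (3091 and 2194 counts) and Aldh18a1 (5000 and 3686) were 1.53-fold and 1.47-fold lower.

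The matrix genes Col1a1, Timp2, Fbln2, Thbs1 and Tnxb were 5 of the 10 genes named for the largest CPM gain. That ranking favours abundant genes, and the share of matrix genes among all genes was not counted. Col1a1, the main chain of type I collagen, had 10970, 25288, 33405 and 32552 counts in control, M8, M32 and M83 (2.73-fold, 2.68 to 2.8), while Col1a2, its partner chain, had 43464 and 43937 counts in control and M83 (1.07-fold lower, 1.06 to 1.09). The ratio of Col1a1 to Col1a2 was therefore not the same in the libraries. Tnxb, a tenascin of connective tissue, had 558, 1485, 1485 and 7287 counts (12-fold, 11 to 13.1), and Fbln2, a fibulin, had 8695, 11808, 11004 and 22494 (2.38-fold, 2.33 to 2.44). The protease inhibitor Timp2 had 13343, 17510, 25430 and 31189 counts (2.15-fold, 2.11 to 2.2). M83 was the highest of the 4 libraries for Tnxb, Fbln2 and Timp2. Of 17 collagen genes with 50 or more counts, 13 were above and 4 below control, 6 at least 2-fold higher, with a median of 0.731. Over the 15 with 50 or more counts in both libraries the median was 0.4, with 11 above and 4 at least 2-fold higher. Over all 17 the median was 1.05 in M8 and 0.828 in M32, both above that in M83. The anchoring collagen Col7a1 had 226, 689, 563 and 957 counts (3.9-fold, 3.37 to 4.53). Of 15 integrin chain and related genes, 13 were above control and 5 at least 2-fold. The median was 0.52 in M83, 0.283 in M8 and 0.524 in M32. Over the 11 with 50 or more counts in both libraries, 9 were above and 2 at least 2-fold, with a median of 0.23. Among the others was the leukocyte chain Itgb2, with 11, 55, 36 and 79 counts (6.62-fold, 3.51 to 13.8).

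In the TGF-beta, activin and BMP pathway 27 of 32 genes were above control and 5 below, 6 at least 2-fold higher, with a median of 0.438. For the same genes the median was 0.323 in M8 and 0.36 in M32. Among ligands, Bmp2 had 174, 290, 140 and 597 counts in control, M8, M32 and M83 (3.16-fold, 2.67 to 3.77), and Tgfb3 had 438 and 827 in control and M83 (1.74-fold, 1.55 to 1.96). The receptor genes Tgfbr2 (1545 and 3211 counts, 1.92-fold) and Tgfbr3 (1366 and 3334, 2.25-fold) were higher, and Tgfbr1 was 1.26-fold above (647 and 882). Inhibitors outside the cell were higher too: Grem1, which binds BMPs, had 1664 and 3970 counts (2.2-fold) and Fst, which binds activin, 1757 and 4100 (2.15-fold). Thbs1, which activates latent TGF-beta, had 1683, 7757, 15903 and 9884 counts (5.41-fold, 5.14 to 5.7) and was lowest in control. Smad2 and Smad4, which carry the signal to the nucleus, lay within 1.07-fold of control. The targets Id1, Id2 and Id3 lay within 1.09-fold.

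Of 10 PDGF and FGF genes, 9 were above control and 1 below, 4 at least 2-fold higher under library-size scaling and 3 under TMM, with a median of 0.826. For the same genes the median was 0.676 in M8 and 0.499 in M32. Fgf2 had 279, 696, 436 and 807 counts in control, M8, M32 and M83 (2.67-fold, 2.32 to 3.07), and its receptor gene Fgfr1 had 873, 2717, 1937 and 2094 (2.21-fold, 2.04 to 2.4). The 1 gene below was Met, the HGF receptor, with 3159 and 3142 counts. In the IGF axis 6 of 9 genes were above and 3 below control. Igfbp4, which sequesters IGF, had 2262, 5681, 4007 and 11470 counts (4.67-fold, 4.47 to 4.89). Igf2r, which clears IGF2, had 969, 5136, 4008 and 3079 counts (2.93-fold, 2.72 to 3.15), and Igf1r, the signalling receptor, had 3290 and 5380 in control and M83 (1.51-fold, 1.44 to 1.57). Igf2bp2, an RNA-binding protein gene on chromosome 16, was 1.61-fold lower (1714 and 1152 counts, 1.5 to 1.74). The Wnt antagonist gene Dkk2 had 424, 930, 1146 and 2682 counts (5.83-fold, 5.26 to 6.47), and the ligand gene Wnt10b had 351, 531, 732 and 1146 (3.01-fold, 2.67 to 3.4). M83 was the highest library for Igfbp4, Dkk2 and Wnt10b. Of 6 IL-1 family receptor genes, 2 were above and 4 below control, with a median of -0.15. Il1rl1, the receptor of IL-33, was above, with 1986, 8827, 6592 and 11965 counts (5.55-fold, 5.29 to 5.83).

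**Figure D4:**
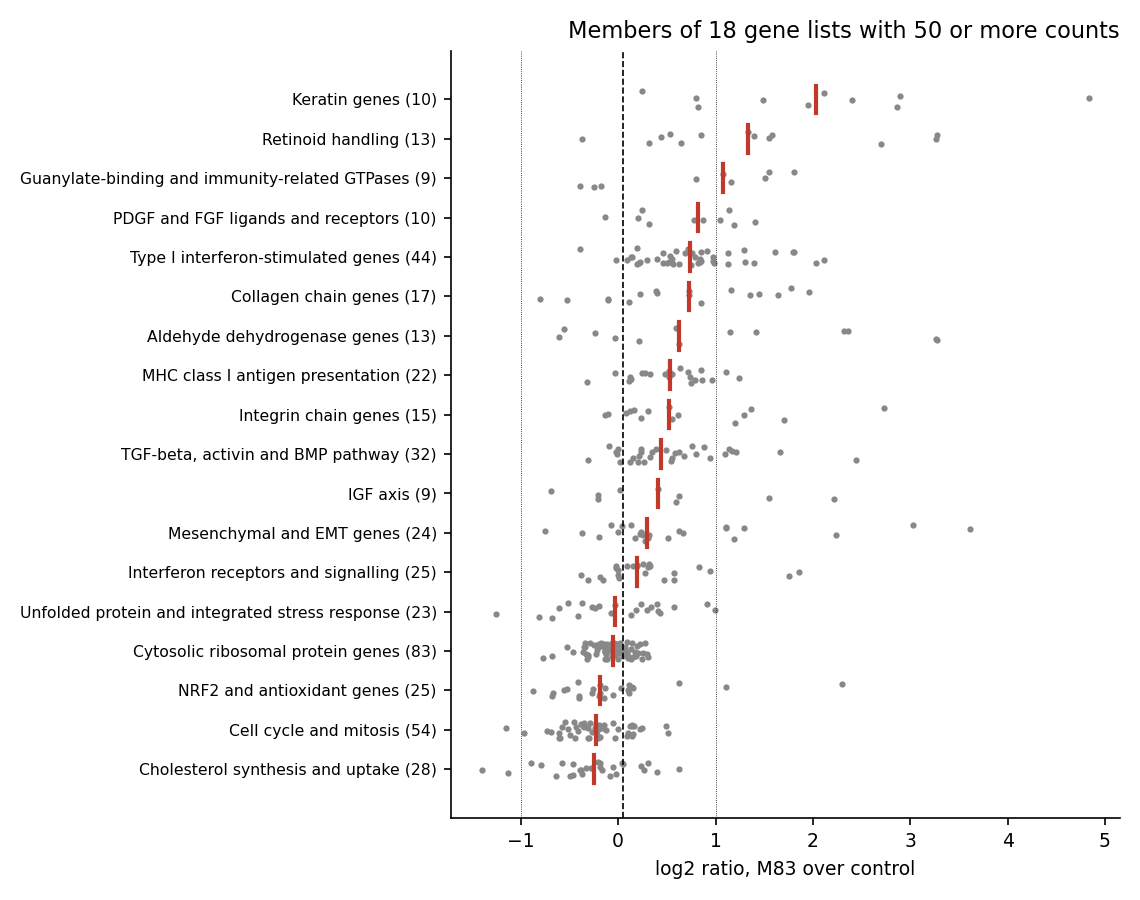
Each grey point is the log2 ratio of M83 over control of 1 gene with 50 or more counts in the higher library, for 18 gene lists with the number of genes in brackets. Red bars are list medians, the dashed line is the median of all genes (0.055) and dotted lines mark 2-fold. The 18 lists were chosen from 47. Among them medians run from 2.03 for keratins, where 6 of 10 genes passed the minimum through M83 alone, to -0.244 for cholesterol genes. Lists of 3 genes left out had medians of 2.577 (carboxylesterases) and -0.566 (glutamate transporters).

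Lower genes were fewer and mostly changed by small factors. In amino acid synthesis, Asns, which makes asparagine, had 10572, 11224, 9489 and 4839 counts in control, M8, M32 and M83 (2.37-fold lower, 2.29 to 2.45). The serine pathway genes Psat1 (18830 and 11688 counts in control and M83) and Phgdh (18166 and 12903) were 1.75-fold and 1.53-fold lower, and Shmt2 was 1.42-fold lower (14809 and 11281). Atf4, a transcription factor known to induce these genes, had 13209, 16640, 14595 and 8940 counts (1.6-fold lower, 1.56 to 1.65). Whether the level of Atf4 bears on theirs was not tested. For Asns, Psat1, Phgdh, Shmt2 and Atf4 M83 was the lowest library. Among the chaperones of the same list, Hspa5 had 38130 and 39444 counts (1.05-fold lower, 1.03 to 1.06), and Dnajb9 431 and 931 (1.99-fold higher, 1.77 to 2.24). Over the 23 genes of the list, 11 were above and 12 below, with a median of -0.026.

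Cholesterol genes were lower in M83 while they were higher in the other lines. Of 28 genes, 21 were below and 7 above control, 2 at least 2-fold lower and none at least 2-fold higher, with a median of -0.244. In M8 and M32 the medians over the same control were 0.632 and 1.058. Srebf2, which switches on the pathway, had 5115, 8457, 9905 and 2982 counts in control, M8, M32 and M83 (1.86-fold lower, 1.78 to 1.95). Idi1, an isomerase of the mevalonate pathway, had 1013, 2745, 2219 and 503 (2.19-fold lower, 1.96 to 2.44). Mylip, a ubiquitin ligase gene, had 170, 204, 282 and 70 (2.63-fold lower, 1.98 to 3.53). Idi1 and Mylip, the 2 genes at least 2-fold lower, lie on chromosome 13, and Srebf2 lies on chromosome 15. The genes of these chromosomes as a whole had medians of -0.195 and -0.151 in M83. M83 was the lowest library for 21 of the 28 genes, but the same share over all genes was not counted. Members above control included the exporter Abca1, with 742 and 1236 counts in control and M83 (1.54-fold, 1.4 to 1.68), and the feedback gene Insig1, with 558 and 800 (1.32-fold, 1.18 to 1.47).

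Genes of the cell cycle were lower by small factors. Of 54, 42 were below and 12 above control, 1 at least 2-fold lower (2 under TMM scaling), with a median of -0.231. The list's median was -0.311 in M8 and -0.181 in M32 over the same control library, so it was not particular to M83. All 6 Mcm2 to Mcm7 genes of the replicative helicase were lower, with Mcm4 lowest at 6216 and 3044 counts (2.22-fold lower, 2.12 to 2.31) on chromosome 16. The licensing genes Gmnn (1504 and 835 counts) and Cdt1 (3752 and 2457) were 1.95-fold and 1.66-fold lower. The mitotic genes Top2a (16543 and 19909 counts) and Aurkb (3744 and 4481) lay within 1.11-fold of control. The inhibitor genes Cdkn1a (5371 and 8319 counts, 1.43-fold) and Cdkn1b (687 and 1044, 1.4-fold) were above control. Without Mcm4, the list's 1 member on chromosome 16, the median was -0.23.

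The genes of chromosome 16 were lower as a whole in M83. The median log2 ratio of its 335 genes was -0.492, a ratio of 0.711, with 289 of them below control (86.3%). Elsewhere the median was 0.065 and 42.4% were below. In M8 and M32 the chromosome's median was -0.006 and -0.06. In order along the chromosome, all 13 runs of 25 genes had a negative median, from -0.588 to -0.157. Of 414 such runs on the other chromosomes, 4 were at or below -0.389, the second highest of the chromosome 16 runs, and 3 of these lay on chromosome 13. The chromosome holds 3.07% of the genes and 18 of the 119 genes at least 2-fold lower (15.1%). Among them are Tfrc, the transferrin receptor, with 9131, 8140, 6134 and 4300 counts in control, M8, M32 and M83 (2.3-fold lower, 2.22 to 2.39), and the exporter Abcc1, with 5863, 4913, 4302 and 2993 (2.13-fold lower, 2.03 to 2.22). Sod1, superoxide dismutase, had 6290 and 4284 counts in control and M83 (1.59-fold lower, 1.53 to 1.66). Not all its genes were lower: App had 6407 and 9310 counts (1.34-fold above, 1.3 to 1.38). Smaller medians were found for chromosomes 13 (-0.195) and 15 (-0.151), and positive ones for 17 (0.221), 12 (0.204) and 11 (0.175). DNA copy number was not analysed here, so lower copy number and lower transcription of these genes cannot be told apart.

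**Figure D5:**
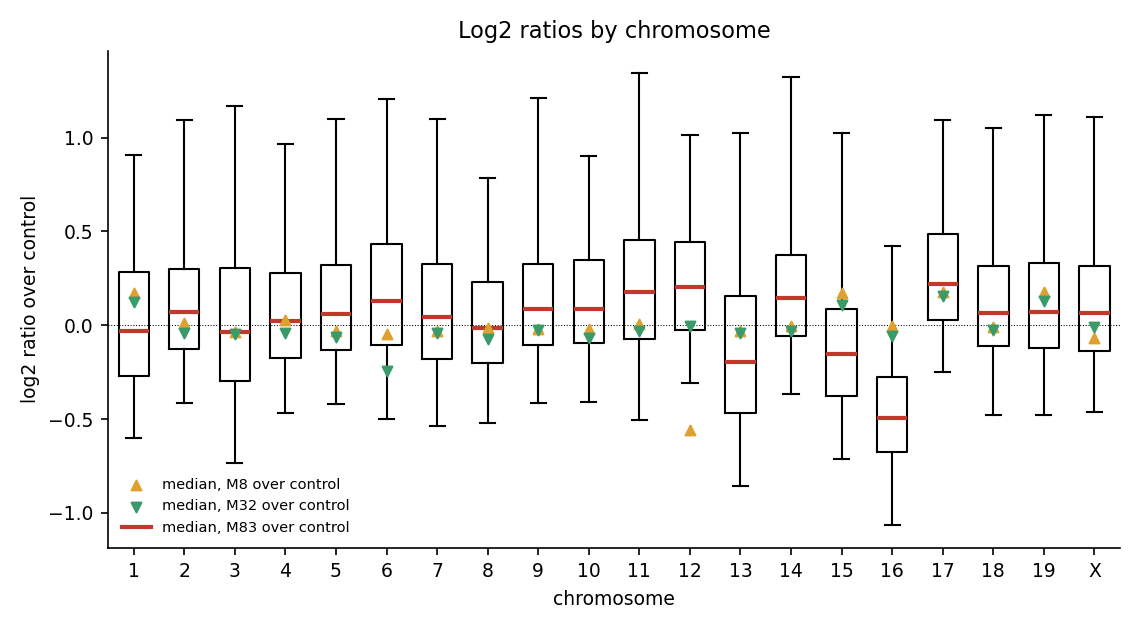
Boxes give the log2 ratio of M83 over control (vertical) for the genes of each chromosome (horizontal), with the quartiles, the median in red and whiskers to the 5th and 95th percentiles. Triangles are the medians of M8 and M32 over the same control library. Chromosome 16 has the lowest M83 median, -0.492.

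Single genes with the largest differences were of many kinds. Scara5, a receptor that takes up ferritin, had 12, 24, 51 and 380 counts in control, M8, M32 and M83 (29.2-fold, 16.5 to 57), beside Tfrc, the other uptake receptor, at 2.3-fold lower. The ferritin chains Fth1 (61736 and 72211 counts) and Ftl1 (78468 and 91165) were within 1.08-fold. The carboxylesterase Ces1f had 32, 107, 4 and 921 counts (26.5-fold, 18.7 to 39). Serpinb8, a protease inhibitor, had 10, 93, 178 and 240 counts (22.1-fold, 11.8 to 46.7), and Htr2a, a serotonin receptor, 3, 36, 16 and 84 (25.8-fold, 8.53 to 128). Ramp3, a receptor-modifying protein, had 4, 41, 0 and 96 counts (22.1-fold, 8.36 to 82.8), Rdm1 3, 29, 67 and 82 (25.2-fold, 8.32 to 125), Mrvi1 2, 43, 82 and 56 (25.8-fold, 6.82 to 218) and Cnfn 2, 24, 0 and 51 (23.5-fold, 6.18 to 199). M8 was above control in all of these, and M32 in Scara5, Serpinb8, Htr2a, Rdm1 and Mrvi1. Ang2, a ribonuclease of the angiogenin family, had 0, 34, 0 and 183 counts, at least 56.2-fold higher in M83 than the control's limit. Olfr1269, an olfactory receptor gene, had 130 counts in M83 and 0 in the other 3 libraries, at least 39.9-fold higher. Pakap had 235 counts in M83 and 0 elsewhere (at least 72.2-fold), but 96.9% of its words are shared, mostly with Akap2, which had 2564 and 4401 counts in control and M83.

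Lowest of all in M83 over control was Slc1a2, the glial glutamate transporter, with 2002 counts in the control library against 10 (M8), 5 (M32) and 12 (M83). The control was thus the library apart. The same was true of Ppef1, a phosphatase, with 259, 6, 12 and 6 counts (46.8-fold lower, 21.2 to 129). Other genes were low in M83 alone. Dppa4, a chromatin gene of pluripotent cells on chromosome 16, had 185, 518, 518 and 4 counts (50.2-fold lower, 19.3 to 186), with 31.3% of its words shared. Pid1 had 64, 131, 81 and 1 counts (69.4-fold lower, 12 to 2785), Mctp1 79, 81, 101 and 2 (42.9-fold, 11.5 to 360), Cpne8 72, 200, 253 and 4 (19.5-fold, 7.31 to 73.6) and Sybu 40, 80, 36 and 2. Lefty1, a Nodal antagonist, had 78, 94, 52 and 0 counts, at least 28.2-fold lower than control. Slc1a2, Ppef1, Dppa4, Pid1, Mctp1, Cpne8 and Lefty1 passed the minimum of 50 counts through control alone, which set their direction. Wdr31, a WD-repeat protein gene, had the most control counts of the 30 genes at least 4-fold lower, with 4220, 7685, 5957 and 900 counts (5.09-fold lower, 4.73 to 5.47), and 11.3% of its words are shared with other genes. Hnrnpa0, an RNA-binding protein gene, had 18573, 20531, 15737 and 9228 counts (2.18-fold lower, 2.13 to 2.24) and Hmgb2, a chromatin protein gene, 11870, 9735, 10215 and 6237 (2.06-fold, 2.00 to 2.13).

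Against all 3 other libraries at once, 24 of 11156 genes (0.215%) lay at least 4-fold above and 30 (0.269%) at least 4-fold below in M83, counting genes with 50 or more counts in the highest library. For comparison, control had 4 above and 27 below, M8 15 and 55, and M32 17 and 17. Pakap, Olfr1269, Krt6a, Ikzf2, Ces1f and Krt17 were furthest above. Ikzf2, the transcription factor Helios, had 10, 10, 4 and 106 counts in control, M8, M32 and M83 (9.77-fold over control, 5.11 to 21). Pid1, Dppa4, Mctp1, Cpne8, Sybu and Lefty1 were furthest below.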

How the data were processed

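Poly(A) RNA of 1 control library and of 1 library each of M8, M32 and M83 was sequenced. The deposited table holds the authors' raw counts, whole numbers for each gene that were not normalised. Per the submitters' processing notes the genome build was GRCm38. Aligner, counter, annotation and strand setting were not given in the sources used here. Columns were matched to lines by the sample descriptions, and no column lacked a sample.

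Counts were divided by the library total (CPM). Totals ran from 25818148 to 28879954. Intervals and the limit of 3 counts for a count of 0 cover only counting error, as reads without molecular identifiers are not independent molecules. Alternatives were TMM (edgeR 4.0.16) and DESeq2 1.42.0 size factors (R 4.3.3), library totals without mitochondrial genes, minimum counts of 20, 200 or none, and intervals that must lie past the fold. Subtracting the chromosome's median and asking for 50 counts in both libraries were added after the data were seen. Chromosomes and transcripts came from GENCODE vM21, which holds 41434 of the 41457 identifiers, and promoters from RefSeq on GRCm38.p6. Words shared between genes were 50 bases long. Python 3.11.15, pandas 2.3.3 and scipy 1.17.1 were used, and the scripts were tested on simulated data.

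The members and the 47 gene lists, 5 of them markers, were chosen with earlier results of these data known. Genes named were the 12 with the largest ratio, the 10 with the largest CPM difference and the 6 furthest set apart per direction, and up to 4 members per list. Others were named after their values were seen, and not every gene this rule gave is reported. Results for some genes are not reported here.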

Additional observations from a re-analysis of the deposited data

How the results depend on the processing

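Scaling by TMM, by DESeq2 size factors or by totals without mitochondrial genes kept all 6 counts of genes within 1.5 times of the main count, as did subtracting the chromosome's median for the 4 fold counts. TMM gave 544 genes at least 2-fold higher and 169 lower, DESeq2 571 and 154. The minimum count mattered more. At 20 counts, 959 genes were at least 2-fold higher and 226 lower, 274 and 64 at 4-fold, and 51 and 49 were set apart above and below. At 200 counts these were 322 and 55, 52 and 10, and 9 and 13. With no minimum they were 1871 and 815, 528 and 201, and 83 and 64. Requiring the interval to lie past the fold left 345 genes at least 2-fold higher, 64 at least 2-fold lower and 77 at least 4-fold higher. Requiring 50 or more counts in both libraries, a choice made after seeing the data, left 355 and 64 genes at 2-fold and 35 and 4 at 4-fold. Fewer counts or fewer genes enter by construction. The chromosome 16 median ran from -0.59 (TMM) to -0.459 (no minimum). Of the list medians given a direction in the report, none changed sign under any alternative, while the stress response median of -0.026 did under 3. Medians that moved by over 1.5 times reached 0.808 for keratins and 0.276 for aldehyde dehydrogenases (200 counts), 0.137 and 0.824 for stratified epithelial genes (TMM and no minimum), and 0.588 for retinoid, 0.401 for collagen and 0.235 for integrin genes (50 counts in both). MHC genes reached 0.331 and interferon signalling 0.094 to 0.292. IL-1 family receptors ran from -0.248 to -0.016, differentiation factors from -0.0 to 1.211, and antioxidant genes reached -0.291. Cytosolic ribosomal protein genes reached -0.178 and nuclear oxidative phosphorylation genes -0.115. The median of all genes was -0.043 under TMM. No paired analysis was possible because each line has 1 library. Depth limits genes near 50 counts, and with 1 library a side the spread between cultures is unknown.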

Other observations

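Several genes outside the lists above were counted in all 4 libraries. Sema3b, a secreted semaphorin, had 49, 212, 286 and 439 counts in control, M8, M32 and M83 (8.26-fold above control in M83, 6.14 to 11.3), and Plxna2, a semaphorin receptor, had 469, 875, 592 and 2123 (4.17-fold, 3.77 to 4.62). Of 13 semaphorin and plexin genes with 50 or more counts, 10 were above control and 3 below, with a median log2 ratio of 0.395. The list's median was 0.389 in M8 and 0.118 in M32. Traf1, an adaptor of TNF receptors, had 52, 170, 45 and 239 counts (4.24-fold, 3.13 to 5.83), while Bcl3, an atypical IkB gene, had 78, 37, 34 and 27 (3.13-fold lower, 2.00 to 5.05). Of 17 NF-kB genes, 12 were above and 5 below control. Slc7a11, the cystine importer, had 1195 and 709 counts in control and M83 (1.83-fold lower, 1.67 to 2.01), and Gclm, of glutathione synthesis, 4988 and 3663 (1.48-fold lower, 1.42 to 1.54). Of 25 antioxidant genes, 16 were below control and 9 above, with a median of -0.193. Cytosolic ribosomal protein genes stayed close to control, with a median of -0.054 over 83 genes, as did nuclear genes of oxidative phosphorylation, with -0.017 over 75. Under TMM scaling these medians were -0.15 and -0.11, with 67 and 50 genes below control.

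Some predicted gene models, chosen after their values were seen, were far above control. Gm10800 had 214, 920, 993 and 2449 counts in control, M8, M32 and M83, and its neighbour Gm10801 had 37, 121, 156 and 277. Gm26870, at the start of chromosome 9, had 305, 887, 1111 and 1971. In each of these 3 models control was lowest and M83 highest.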
